A study of Mus musculus with 14 samples.

Results

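The genes described here carry glucose carbon into and around the tricarboxylic acid (TCA) cycle. The 51 genes were chosen by name for their place in the pathway, and all 51 were found among the 43346 genes of the count table. They comprise 18 genes of glucose uptake and glycolysis, 4 genes that make, use or carry lactate, 13 genes of pyruvate entry into mitochondria, 12 genes of the TCA cycle and 4 genes of the malate-aspartate shuttle and glutamate metabolism. All 51 passed the filter on low values in each comparison, and their counts per mouse lay between 272 and 161037.

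RNA was sequenced from a brain section of hippocampus and cortex of 14 female mice aged 23 months. The 4 NTG mice are non-transgenic littermates, and the other 10 mice are double transgenic APP/PS1 mice, which carry Alzheimer-linked forms of the amyloid precursor protein and presenilin 1 (genotype label APP/PS1 +/+). The strain label of every mouse is C57BL/6;SJL-Tg, and the promoters of the transgenes are not given in the sources used here. From 9 months of age 5 APP/PS1 mice drank water with CP2, a partial inhibitor of mitochondrial complex I, at 25 mg/kg/day for 14 months, while the NTG mice and the other 5 APP/PS1 mice are labelled non-treated and received, by the protocol, water with the PEG vehicle. NTG mice given CP2 were not analysed here, so that CP2 can be compared with vehicle in transgenic mice alone. Mice are named by the numbers in their labels, which are 7, 8, 9 and 10 for NTG, 16 to 20 for APP/PS1 and 21 to 25 for the CP2-treated APP/PS1 group, and per-mouse values are given in that order.

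In glycolysis a glucose molecule that has entered through a transporter is phosphorylated by a hexokinase, split, and oxidized to pyruvate in the cytosol. Pyruvate is either reduced to lactate or carried into mitochondria, where the pyruvate dehydrogenase complex turns it into acetyl-CoA for the TCA cycle, and pyruvate dehydrogenase kinases switch that complex off. In brain, neurons rely strongly on the TCA cycle, whereas astrocytes, which take up glucose from the vessel wall, are known for glycolysis and lactate export. The study asked how APP/PS1 mice and CP2 treatment differ in brain glucose use, and the comparisons below ask whether the transcripts of these enzymes differed between the groups.

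Levels between genes are compared per length, in the RPKM values that the authors deposited (reads per kilobase of annotated exon and scaled to library size). The mean RPKM over the 4 NTG mice ran from 0.618 ± 0.113 (SD) for Hk2 to 453 ± 21 for Pkm, the muscle-type pyruvate kinase gene, with a median of 35.5 over the 51 genes. Aldoa, an aldolase, followed Pkm at 369 ± 19.1 RPKM, with no overlap between the mice of both genes. The next genes, Mdh1 (cytosolic malate dehydrogenase) at 243 ± 32.0, Aldoc at 224 ± 21.4, Ldhb at 224 ± 9.92 and Tpi1 (triosephosphate isomerase) at 207 ± 5.05 RPKM, overlapped in their ranges over the NTG mice, except that Tpi1 lay below Ldhb in every mouse. The median of the gene means in NTG mice was 62.1 RPKM for glycolysis, 32.5 RPKM for the TCA cycle and 17.7 RPKM for pyruvate entry. Within isoenzyme families the level in NTG mice favoured 1 member, with an RPKM ratio of 2.64 for neuronal enolase Eno2 to Eno1, 3.90 for the lactate dehydrogenase subunit Ldhb to Ldha, 0.299 for Pfkl to the phosphofructokinase gene Pfkm and 0.0192 for Hk2 to Hk1, the main brain hexokinase. The exon length of the table covers all annotated transcripts of a gene, so that a gene with many transcripts, such as Gapdh with 4133 bases, gets a lower RPKM. Transcripts of other genes also share 78% of the read-length stretches of Gapdh and 58.8% of those of Eno1, but none of Eno2. The levels of Gapdh and Eno1, and the ratio of Eno2 to Eno1, are therefore uncertain.

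**Figure D1:**
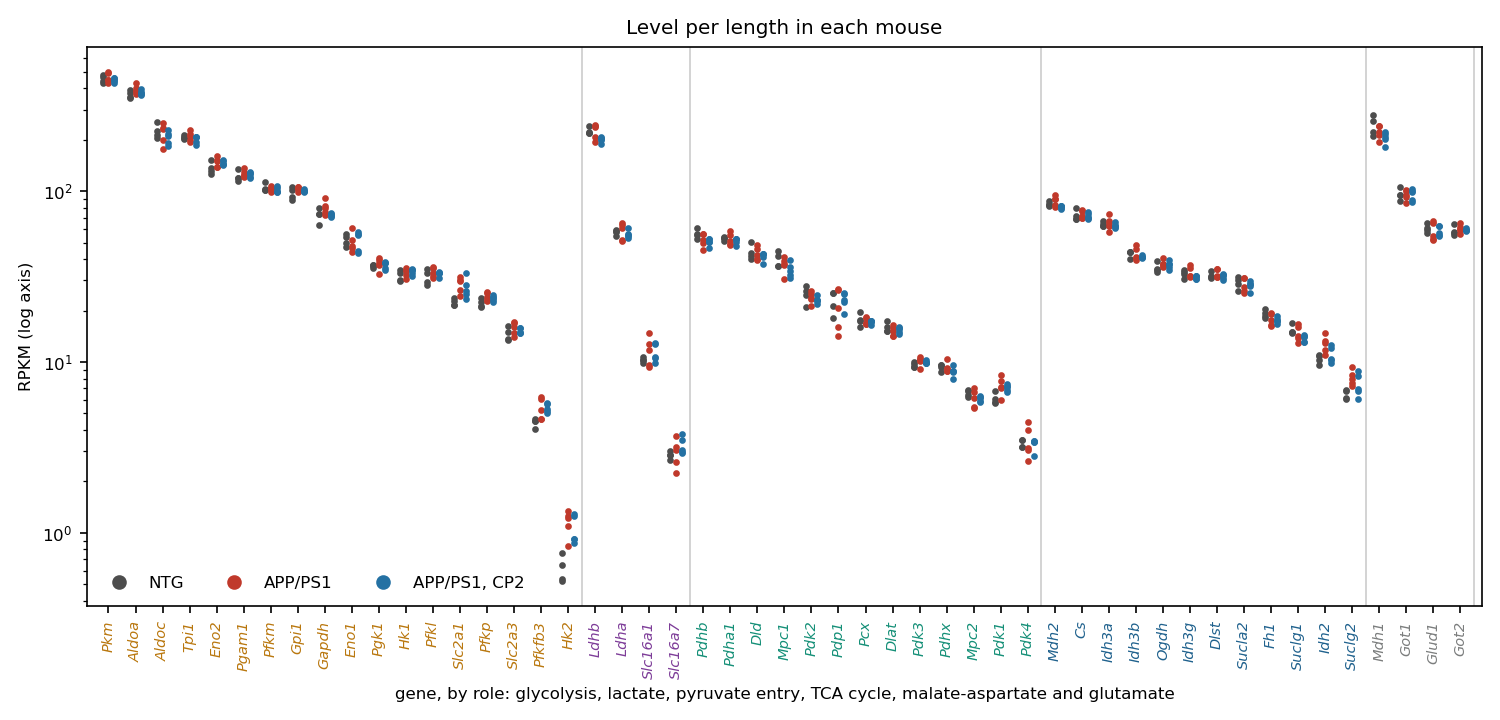
RPKM on a log axis (vertical) of the 51 genes (horizontal, ordered within each role by the NTG mean), with 1 point per mouse and colours for the 3 groups. The genes span from 0.618 RPKM (Hk2, NTG mean) to 453 RPKM (Pkm), and the groups lie on top of each other for most genes, with Hk2 set apart.

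In APP/PS1 mice the clearest difference from NTG mice was a higher level of Hk2, hexokinase 2, the inducible form of the enzyme that traps glucose in the cell, which rose by 78.5%. It was the only gene of the 51 with an adjusted p under 0.05 in edgeR's quasi-likelihood test, where 5.68% of the 16417 genes tested passed. At an unadjusted p under 0.05, the threshold used in the study, 5 of the 51 genes were higher in APP/PS1 mice (Slc2a1, Hk2, Pfkfb3, Idh2 and Suclg2), against 10.6% of all genes tested, and 4 were lower (Mpc2, Pdhb, Dlat and Fh1), against 8.05% of all genes. The values of the APP/PS1 and NTG mice did not overlap for 4 of the 51 genes (Hk2, Suclg2, Pdhb and Fh1), against 9.97% of all genes. These shares are near the background or below it.

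APP/PS1 mice with and without CP2 differed little in these genes. None of the 51 passed an adjusted p under 0.05 in edgeR, DESeq2 or limma-voom, and 0.00609% of the 16407 genes tested, 1 gene, passed it in edgeR. At an unadjusted p under 0.05 no gene was higher under CP2, where 2.88% of all genes were, and 4 were lower (Gapdh, Ldhb, Idh2 and Mdh2), where 3.66% of all genes were, with an adjusted p of 0.744 for each of the 4. The groups did not overlap for 1 gene, Mdh2, against 1.18% of all genes. For 45 of the 51 genes the whole 95% interval of the log2 fold change lay within 0.3 of 0, which upward is a difference of 23.1%. The 6 genes whose intervals reached further were Hk2, Slc16a7, Pdk4, Pdp1, Idh2 and Suclg2.

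Against NTG mice, the APP/PS1 mice given CP2 had 4 of the 51 genes past an adjusted p under 0.05, beside 6.02% of the 16416 genes tested: Hk2, Pfkfb3 and Pdk1 rose and Ldhb fell. At an unadjusted p under 0.05, 4 genes were higher (Slc2a1 in addition to those 3), against 11.6% of all genes, and 13 were lower, against 8.59% of all genes. Of the 13 lower genes, 10 belong to pyruvate entry and the TCA cycle. The groups did not overlap for 7 of the 51 genes, 3 higher (Hk2, Pfkfb3 and Pdk1) and 4 lower (Ldhb, Pdhb, Idh3b and Mdh2), against 9.73% of all genes. The 3 comparisons share mice in pairs, the NTG mice entering the first and the last, so that their results are not independent of each other.

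**Figure D2:**
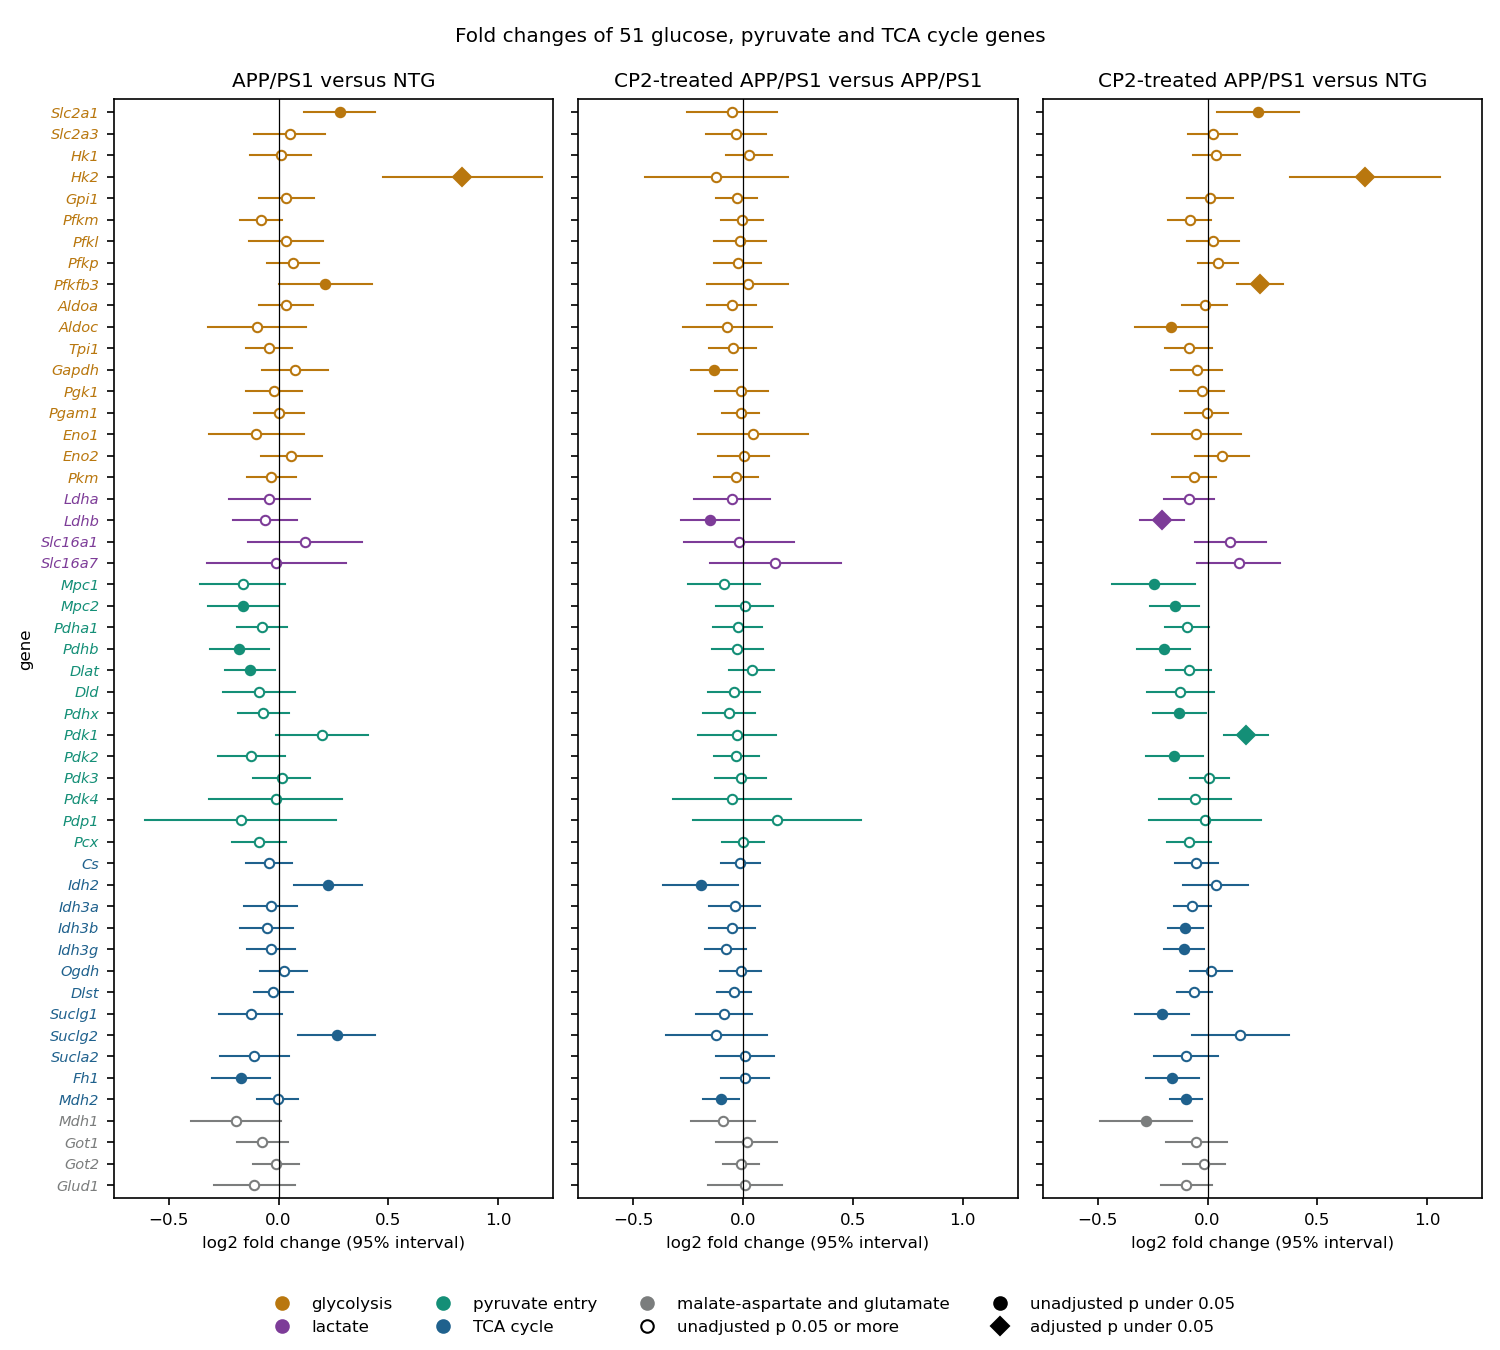
Log2 fold change (horizontal axis, with the 95% interval) of the 51 genes (vertical axis, coloured by role) in the 3 comparisons. Filled circles mark an unadjusted p under 0.05 and diamonds an adjusted p under 0.05. Hk2 stands at 0.84 in APP/PS1 against NTG mice, and 32 of the 51 genes lie within 0.1 of 0 there.

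Glycolysis and the mitochondrial steps leaned apart in direction, by small amounts. In APP/PS1 against NTG mice 12 of the 18 glycolysis genes had a log2 fold change above 0 and 6 below, with a median of 0.03. Of the 25 genes of pyruvate entry and the TCA cycle 5 lay above 0 and 20 below, with a median of -0.07. When single mice were left out, the glycolysis median ran from -0.002 (without mouse 7) to 0.07 (without mouse 10). The median of the 25 genes ran from -0.10 to -0.05. Over all genes tested the median was -0.004, and 51.2% lay below 0. In APP/PS1 mice given CP2 against NTG mice 9 of 18 glycolysis genes lay on either side with a median of 0.003, and the 25 mitochondrial genes again had 5 above and 20 below 0, with a median of -0.09 beside -0.002 over all genes. Between the APP/PS1 groups both sets lay mostly below 0 under CP2, with 14 of 18 glycolysis genes and 20 of 25 mitochondrial genes lower, medians of -0.03 for both and 52.5% of all genes below 0. No test of a gene set was made, and genes of one pathway are not independent of each other.

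The same contrast in single mice was uneven. The median over the 25 genes, as a log2 difference from the NTG mean, was 0.01, 0.02, -0.04 and -0.02 in the NTG mice, -0.12, 0.01, -0.03, -0.11 and -0.06 in the APP/PS1 mice and -0.09, -0.10, -0.04, -0.08 and -0.14 in the APP/PS1 mice given CP2. Mouse 17 of the APP/PS1 group lay within the NTG range and mouse 18 did too, while the other 3 APP/PS1 mice lay below it, and under CP2 mouse 23 alone lay within it. For the 18 glycolysis genes the median was -0.05, -0.02, 0.05 and 0.04 in the NTG mice and between -0.01 and 0.09 in the APP/PS1 mice, and from -0.02 to 0.03 under CP2. Those ranges overlap. The 4 genes of the malate-aspartate shuttle and glutamate metabolism all lay below 0 in both comparisons with NTG mice, with medians of -0.09 in APP/PS1 and -0.07 in APP/PS1 mice given CP2.

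**Figure D3:**
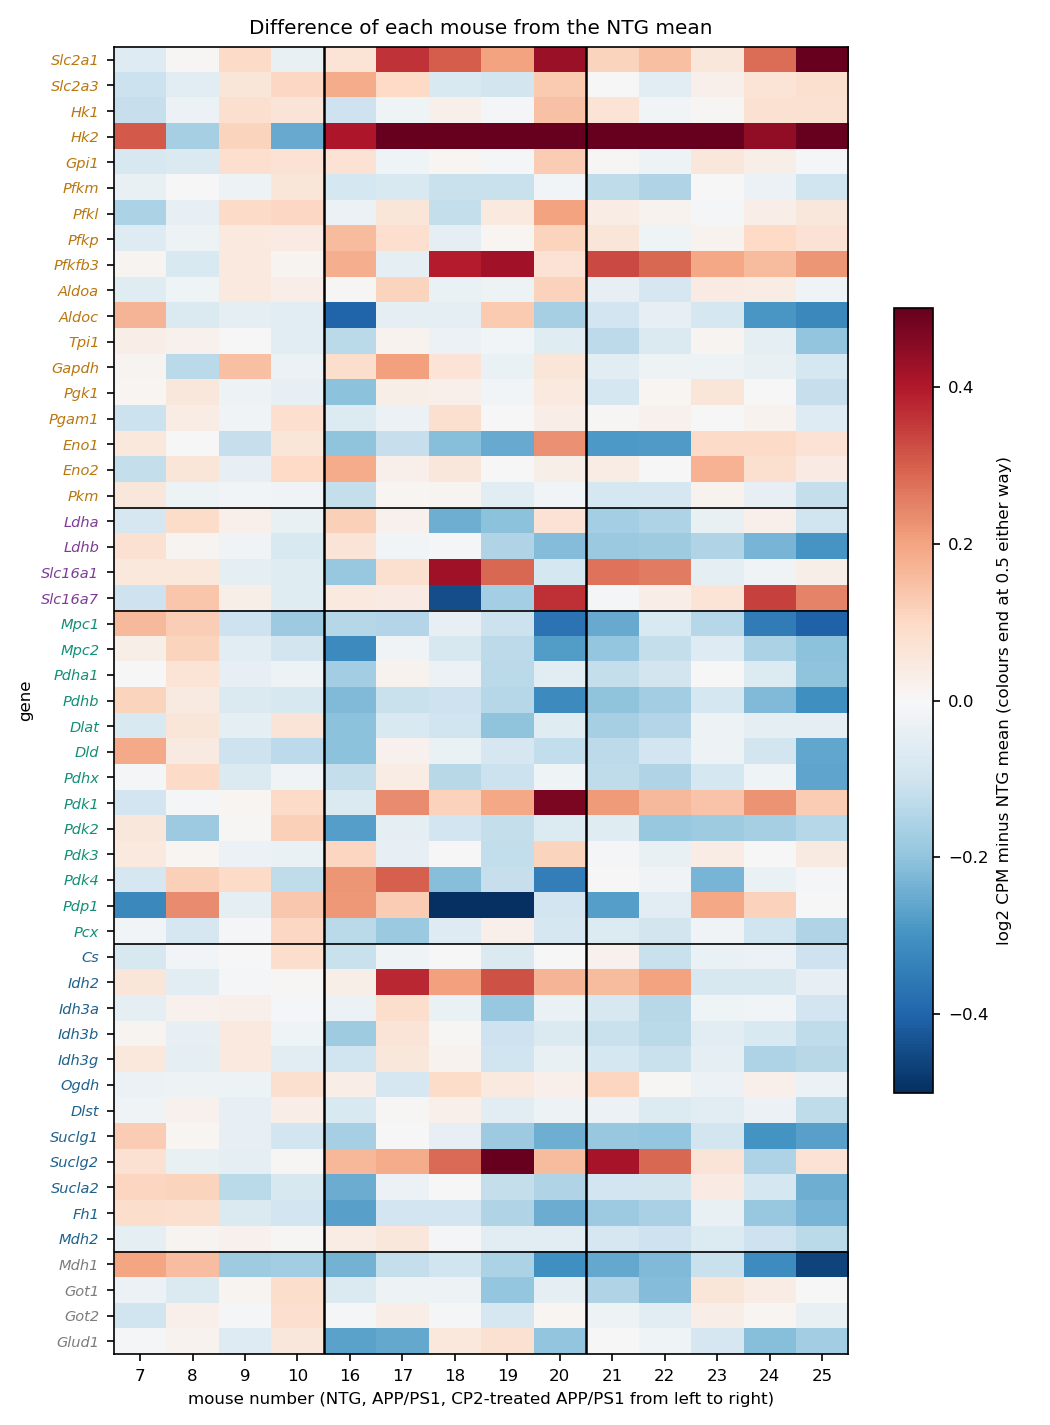
Log2 CPM of each mouse (columns, with lines between NTG, APP/PS1 and APP/PS1 mice given CP2) minus the NTG mean, for the 51 genes (lines of the map, grouped by role). Red is higher and blue lower than the NTG mean, and the colours end at 0.5 in either direction. Hk2 is red and Pdhb and Fh1 are blue in the APP/PS1 mice, while most other genes are pale.

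Hk2, Slc2a1, Pfkfb3 and Pdk1 are textbook targets of HIF-1, whose binding sites hold the core letters ACGTG or GCGTG. Slc2a3, Aldoa, Pgk1, Pgam1, Eno1 and Ldha, which are known as targets too, passed no test in any comparison. Their log2 fold changes in APP/PS1 against NTG mice were 0.05, 0.04, -0.02, 0.0021, -0.10 and -0.04 in that order. In APP/PS1 mice given CP2 against NTG mice they were 0.02, -0.01, -0.03, -0.0045, -0.05 and -0.09. Neither list holds every known target, so absence from both does not make a gene a non-target. The genes named first are also all genes that rose against NTG mice. Aldoc and Gapdh, glycolysis genes placed in neither list, went down in 1 comparison each at an unadjusted p under 0.05. Aldoc was at -0.17 in APP/PS1 mice given CP2 against NTG mice, and Gapdh at -0.13 under CP2 in APP/PS1 mice. The 250 bases before the start sites of Hk2, Pfkfb3, Slc2a1 and Pdk1 are shown so that a reader can see where such letters stand. Those of Ldhb, which fell at an adjusted p under 0.05 in APP/PS1 mice given CP2 against NTG mice, are shown too. Each sequence is from RefSeq (GRCm38.p6), 5′ to 3′ on the strand of the gene, with capitals for every ACGTG or GCGTG on either strand (CACGT and CACGC when read on the other strand).
Hk2, chr6:82774455-82774704, minus strand: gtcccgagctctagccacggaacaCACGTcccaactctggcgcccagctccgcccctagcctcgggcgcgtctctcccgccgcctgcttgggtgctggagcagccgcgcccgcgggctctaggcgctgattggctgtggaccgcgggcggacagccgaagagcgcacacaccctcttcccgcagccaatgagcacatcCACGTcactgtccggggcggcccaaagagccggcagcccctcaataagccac
Pfkfb3, chr2:11553930-11554179, minus strand: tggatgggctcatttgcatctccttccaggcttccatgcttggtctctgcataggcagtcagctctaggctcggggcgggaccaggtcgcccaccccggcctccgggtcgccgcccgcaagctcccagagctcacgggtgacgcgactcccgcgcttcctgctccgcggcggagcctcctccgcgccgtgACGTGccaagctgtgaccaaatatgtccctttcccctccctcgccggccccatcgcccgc
Slc2a1, chr4:119108495-119108744, plus strand: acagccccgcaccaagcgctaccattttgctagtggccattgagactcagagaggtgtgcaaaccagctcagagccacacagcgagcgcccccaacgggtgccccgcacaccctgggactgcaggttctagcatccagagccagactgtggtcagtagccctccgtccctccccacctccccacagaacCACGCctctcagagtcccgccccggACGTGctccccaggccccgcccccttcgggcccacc
Pdk1, chr2:71872974-71873223, plus strand: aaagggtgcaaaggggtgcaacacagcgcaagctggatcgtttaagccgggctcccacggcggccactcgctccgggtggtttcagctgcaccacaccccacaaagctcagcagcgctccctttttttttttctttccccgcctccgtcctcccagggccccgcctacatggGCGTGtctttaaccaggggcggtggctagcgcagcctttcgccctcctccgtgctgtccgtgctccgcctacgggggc
Ldhb, chr6:142507958-142508207, minus strand: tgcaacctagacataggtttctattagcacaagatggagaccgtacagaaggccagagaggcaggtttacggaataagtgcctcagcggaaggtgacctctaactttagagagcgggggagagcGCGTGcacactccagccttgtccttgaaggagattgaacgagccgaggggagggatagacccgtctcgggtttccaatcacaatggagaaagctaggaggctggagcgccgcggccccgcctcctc

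The Hk2 stretch held ACGTG at 2 places, Pfkfb3 and Slc2a1 each at 1 place, Slc2a1 also GCGTG at 1 place, and Pdk1 and Ldhb GCGTG at 1 place. RefSeq promoters were matched for 47 of the 51 genes, and 34 of these 47 (72.3%) held either form in the 250 bases, against 38.6% of 32851 start sites in the RefSeq table, which lists some genes with several. For each of the 47 genes the start site nearest to its annotated 5′ end was used. For ACGTG alone the shares were 31.9% and 16.6%, and for GCGTG alone 55.3% and 28.2%. No adjustment was made for base composition. The letters and the promoters shown were chosen after the values were seen, a match is a description and not a binding site, and Ldhb, which went the other way, held a match too.

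Below, the level of a gene in a mouse is given as CPM, the count relative to a library size corrected with TMM factors for differences in composition. Glucose uptake and phosphorylation come first. Slc2a1 encodes the glucose transporter GLUT1 of the blood-brain barrier and astrocytes. It stood at 76.2, 79.9, 85.1 and 77.7 CPM in the NTG mice, 83.6, 102, 98.3, 91.5 and 108 CPM in the APP/PS1 mice and 86, 88.3, 82.8, 96.5 and 114 CPM under CP2. All APP/PS1 mice but mouse 16 lay above every NTG mouse. Slc2a1 was 21.2% higher in APP/PS1 than in NTG mice (log2 fold change 0.28, SE 0.07, unadjusted p = 0.00357, adjusted p = 0.0575) and 17.3% higher in APP/PS1 mice given CP2 (unadjusted p = 0.0207, adjusted p = 0.156). Slc2a3, the neuronal transporter GLUT3, did not pass a test, with 122 to 141 CPM in NTG, 123 to 149 CPM in APP/PS1 mice and 126 to 139 CPM with CP2, and its log2 fold change under CP2 in APP/PS1 mice was -0.03 (95% interval -0.17 to 0.10).

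Hk2 had the lowest level of the set and the widest difference. It stood at 5.62, 4.05, 4.91 and 3.82 CPM in the NTG mice, 6.01, 7.55, 8.74, 9.70 and 9.02 CPM in the APP/PS1 mice and 8.97, 9.15, 6.87, 6.18 and 6.65 CPM under CP2. Every APP/PS1 mouse, treated or not, exceeded every NTG mouse. The log2 fold change was 0.84 (SE 0.16, adjusted p = 0.0141) in APP/PS1 and 0.72 (SE 0.16, adjusted p = 0.0211) in APP/PS1 mice given CP2, both against NTG. Between the APP/PS1 groups it was -0.12 (95% interval -0.45 to 0.20, unadjusted p = 0.43), so a moderate change in either direction was not detectable with these mice. Hk1, which carries most hexokinase transcript here, was at 312 to 357 CPM in NTG, 315 to 375 CPM in APP/PS1 mice and 335 to 356 CPM with CP2, and no comparison passed, with a log2 fold change of 0.01 in APP/PS1 mice. The log2 ratio of Hk2 to Hk1 within a mouse ran from -6.53 to -5.79 in NTG mice and from -5.70 to -5.11 in APP/PS1 mice, without overlap, and from -5.84 to -5.19 in APP/PS1 mice given CP2.

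The libraries held 70548781 to 106235625 counts, and the share of counts in genes like ribosomal RNA was 2.40 to 7.5%. Markers of some cell types also differed between the groups in the bulk tissue. The summed level of 10 microglia markers (among them Cx3cr1, P2ry12 and Csf1r) was 443 to 460 CPM in NTG, 821 to 1251 CPM in APP/PS1 and 728 to 1051 CPM in APP/PS1 mice given CP2, and 10 of 10 markers passed an adjusted p under 0.05 upward in APP/PS1 against NTG mice. The 10 endothelium markers (among them Cldn5, Pecam1 and Flt1) summed to 215 to 229 CPM in NTG, 228 to 326 CPM in APP/PS1 and 246 to 280 CPM in APP/PS1 mice given CP2, with 1 of 10 past the adjusted threshold upward in APP/PS1 and 5 of 10 in APP/PS1 mice given CP2 against NTG. The 10 neuron markers summed to 6785 to 7488, 6337 to 7081 and 6554 to 7408 CPM in the same order, with none past the adjusted threshold and, at an unadjusted p under 0.05, 1 lower in APP/PS1 and 3 lower in APP/PS1 mice given CP2. The 10 astrocyte markers summed to 4831 to 5389, 5059 to 6850 and 5230 to 6343 CPM. Against NTG, 1 was higher and 2 lower past the adjusted threshold in APP/PS1, and 2 higher and 3 lower in APP/PS1 mice given CP2. At an unadjusted p under 0.05, 1 was higher and 5 lower in APP/PS1, and 2 higher and 4 lower in APP/PS1 mice given CP2. The sum is not an even measure of the list, since Gfap alone ran from 325 to 507, 1015 to 2590 and 1249 to 2153 CPM in the 3 groups. The 10 dentate gyrus markers summed to 353 to 401 CPM in NTG, 244 to 338 CPM in APP/PS1 and 317 to 337 CPM in APP/PS1 mice given CP2, so that every transgenic mouse lay below every NTG mouse, as for Pdhb. At an unadjusted p under 0.05, 6 of these 10 markers were lower in APP/PS1 and 5 in APP/PS1 mice given CP2, against NTG. In bulk tissue, fewer cells of a type and less RNA per cell cannot be told apart, and the part of these markers in the values of Hk2, Slc2a1 or the mitochondrial genes was not tested. The 10 thalamus markers summed to 489 to 776, 248 to 579 and 506 to 748 CPM in NTG, APP/PS1 and APP/PS1 mice given CP2. All 10 were lower in APP/PS1 than in NTG mice, 1 at an unadjusted p under 0.05. All 10 were higher under CP2 in APP/PS1 mice, 4 at that threshold. The 10 oligodendrocyte markers summed to 5540 to 8017 (highest in mouse 7), 5030 to 7500 and 5840 to 6567 CPM in the same order. The APP/PS1 library of mouse 16 stood apart in 10 striatum markers, at 3239 CPM against 354 to 587 CPM in the other 13 mice. It also had the lowest thalamus sum. Without that mouse Slc2a1, Idh2 and Suclg2 joined Hk2 past an adjusted p under 0.05 in APP/PS1 against NTG mice, 4 genes in place of 1. The share of all genes that passed without that mouse is not given here, so this rise has no background beside it.

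**Figure D4:**
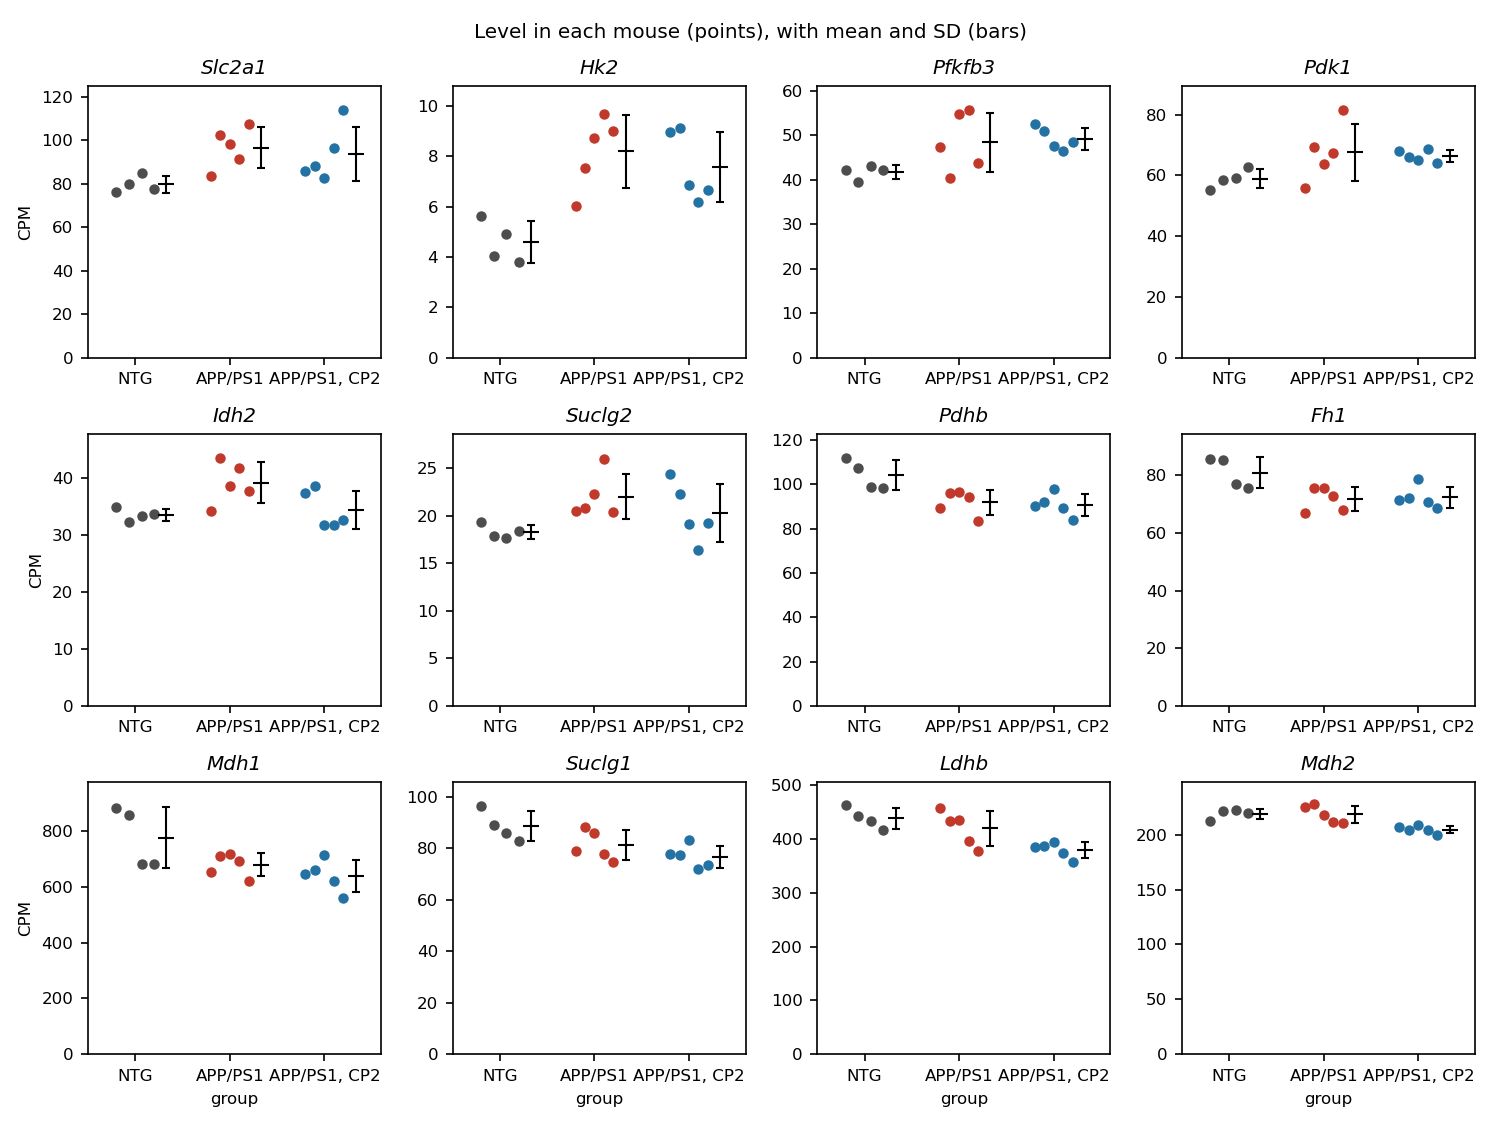
CPM (vertical axes, from 0) of 12 genes in each mouse (points) by group, with the group mean and SD (bars; n = 4, 5 and 5 mice). Slc2a1, Hk2, Pfkfb3 and Pdk1 lie higher in both APP/PS1 groups than in NTG mice on average, Pdhb, Fh1, Mdh1 and Suclg1 lie lower, and Hk2 is the only one whose APP/PS1 and APP/PS1 mice given CP2 all lie above the NTG mice.

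The next steps of glycolysis change fructose phosphates. Pfkfb3 makes fructose 2,6-bisphosphate, the strongest activator of phosphofructokinase. It stood at 42.1, 39.5, 43.2 and 42.1 CPM in the NTG mice, 47.3, 40.3, 54.7, 55.7 and 43.9 CPM in the APP/PS1 mice and 52.4, 50.9, 47.7, 46.5 and 48.5 CPM under CP2. Under CP2 all 5 mice lay above the NTG mice, in a narrow range, whereas the vehicle-treated APP/PS1 mice spread from below that range to above it. Pfkfb3 rose by 18% in APP/PS1 mice given CP2 against NTG mice (log2 fold change 0.24, SE 0.05, adjusted p = 0.0143) and was 16% higher in APP/PS1 mice (unadjusted p = 0.0468, adjusted p = 0.257). The 2 APP/PS1 groups differed by a log2 fold change of 0.02 (95% interval -0.16 to 0.20). Pfkm, the main phosphofructokinase gene here, stood at 375 to 402 CPM in NTG, 356 to 381 CPM in APP/PS1 mice and 347 to 385 CPM with CP2, and its log2 fold change of -0.08 in APP/PS1 against NTG mice did not pass (unadjusted p = 0.0925).

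Aldoc is the astrocyte form of aldolase. It stood at 1023, 865, 882 and 877 CPM in the NTG mice, 688, 882, 883, 996 and 812 CPM in the APP/PS1 mice and 852, 885, 855, 744 and 727 CPM under CP2. Its values in all 3 groups overlapped, and the APP/PS1 mice ran from 688 to 996 CPM. It was lower in APP/PS1 mice given CP2 than in NTG mice with a log2 fold change of -0.17 (unadjusted p = 0.0486, adjusted p = 0.244), a call that was lost in 8 of 17 alternatives, among them the fits without mouse 7, 9, 24 or 25. Gapdh, the enzyme that oxidizes glyceraldehyde phosphate, stood at 377, 340.1, 414 and 365 CPM in the NTG mice, 397, 430.3, 391, 365 and 389 CPM in the APP/PS1 mice and 359, 366, 366, 364 and 351 CPM under CP2. The CP2-treated mice lay close together, and only the lowest vehicle-treated APP/PS1 mouse fell into their range. Gapdh had a log2 fold change of -0.13 between them (SE 0.05, unadjusted p = 0.019, adjusted p = 0.744). For Gapdh 78% of the 101-base stretches of its longest protein-coding transcript also occur in other annotated transcripts, from 85 genes, so that its count depends on how reads with several matches were treated, which is not given in the sources used here.

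The other 13 genes of glucose uptake and glycolysis passed no test at an unadjusted p under 0.05 in any comparison, with log2 fold changes between -0.10 and 0.07. They were Slc2a3, Hk1, Gpi1, Pfkm, Pfkl, Pfkp, Aldoa, Tpi1, Pgk1, Pgam1, Eno1, Eno2 and Pkm. Pkm, which makes pyruvate, was at 1442 to 1523 CPM in NTG, 1349 to 1479 CPM in APP/PS1 mice and 1349 to 1486 CPM with CP2, with log2 fold changes of -0.03 in APP/PS1 against NTG mice and -0.03 under CP2. Its 95% intervals were -0.14 to 0.08 and -0.13 to 0.07.

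Reads could also match other genes. No 101-base stretch was shared for 33 of the 51 genes, Hk2, Pfkfb3, Pdk1, Idh2, Fh1 and Mdh2 among them. Over 10% of the stretches were shared for Pgk1, Eno1, Pgam1, Got2, Mpc1, Pfkp, Pdha1, Suclg2 and Pdhb besides Gapdh. The only gene that shared them was Pitrm1 for Pfkp and Map3k15 for Pdha1. These 10 counts are uncertain to that degree.

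Eno1, the general form of enolase, fell into 2 sets of mice that cut across the groups. A near copy of it, Eno1b, is annotated as a separate gene, and 58.3% of the 101-base stretches of the Eno1 transcript also occur in Eno1b. The share of Eno1b in the sum of both was between 11.6 and 12.5% in 7 mice (mouse 9 of the NTG group, mice 16 to 19 of APP/PS1 and mice 21 and 22 under CP2) and between 3.38 and 3.80% in the other 7. Eno1 itself was 283 to 319 CPM in the first 7 mice and 345 to 405 CPM in the others. The sum of both genes still ran from 322 to 364 CPM against 358 to 421 CPM. The sets hold 1 of 4 NTG, 4 of 5 APP/PS1 and 2 of 5 APP/PS1 mice given CP2 at the high share, so the fold changes of Eno1 between groups carry this split and are uncertain. Under CP2, mice 21 and 22 also lay above mice 23 to 25 for Hk2, Idh2, Suclg2 and Slc16a1, among others. They lay below them for Ldha, Pfkm, Dlat and Got1, among others. Mice 9 and 20, each alone in its group by its share, lay within the range of the others for Hk2, Idh2 and Slc16a1. For Suclg2 both were the lowest of their groups, though their shares differ. What the split stems from, and its part in other genes, was not tested.

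**Figure D5:**
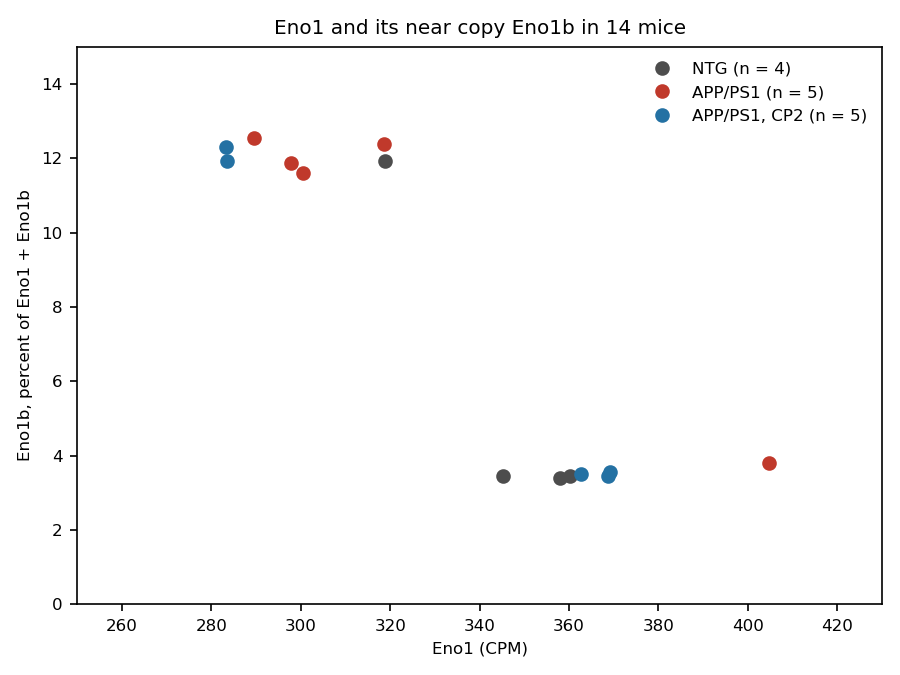
Eno1 in CPM (horizontal axis) and the share of Eno1b in the sum of Eno1 and Eno1b (vertical axis, percent), with 1 point per mouse and colours for the groups. The 14 mice fall into 7 with a share of 11.6 to 12.5% and 7 with 3.38 to 3.80%, and both sets hold mice of all 3 groups.

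Among the lactate genes, Ldhb, the lactate dehydrogenase subunit that predominates in neurons and heart, fell in APP/PS1 mice given CP2. It stood at 463, 443, 434 and 417 CPM in the NTG mice, 459, 435, 435, 396 and 378 CPM in the APP/PS1 mice and 386, 388, 395, 373 and 357 CPM under CP2. Every CP2-treated mouse lay below every NTG mouse, while the vehicle-treated APP/PS1 mice spread over both. The log2 fold change was -0.21 against NTG mice (SE 0.05, adjusted p = 0.0222) and -0.15 against vehicle-treated APP/PS1 mice (SE 0.06, unadjusted p = 0.027, adjusted p = 0.744). In APP/PS1 against NTG mice it was -0.06 (unadjusted p = 0.358). Ldha, the subunit that predominates in glycolytic tissue, and the lactate carriers Slc16a1 (MCT1, of endothelium and glia) and Slc16a7 (MCT2, of neurons) passed no test. Slc16a1 was at 54.1 to 58.6 CPM in NTG, 49.5 to 75.8 CPM in APP/PS1 mice and 54.5 to 68.1 CPM with CP2 and Slc16a7 at 12.8 to 15.2 CPM in NTG, 10.1 to 17.8 CPM in APP/PS1 mice and 13.8 to 17.5 CPM with CP2. Of the APP/PS1 mice, mouse 18 had the highest Slc16a1 and the lowest Slc16a7, and mouse 20 the highest Slc16a7.

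Pyruvate enters mitochondria through a carrier made of the products of Mpc1 and Mpc2. Mpc1 stood at 115, 112, 95.5 and 90.5 CPM in the NTG mice, 93, 92.8, 99.8, 95.3 and 79.5 CPM in the APP/PS1 mice and 86.2, 97.4, 93, 80.6 and 77.6 CPM under CP2. Mpc2 stood at 61.3, 64.8, 57.9 and 56.3 CPM in the NTG mice, 48.2, 59.2, 56.8, 54.9 and 49.4 CPM in the APP/PS1 mice and 52.5, 55.2, 57.3, 53.7 and 52 CPM under CP2. Both tended to lower values in the transgenic mice, but for each the groups overlapped. Mpc2 was lower in APP/PS1 than in NTG mice (log2 fold change -0.16, unadjusted p = 0.0478, adjusted p = 0.261) and in APP/PS1 mice given CP2 (-0.15, unadjusted p = 0.0129, adjusted p = 0.121). Mpc1 was lower in APP/PS1 mice given CP2 than in NTG mice only at an unadjusted p (-0.25, SE 0.09, unadjusted p = 0.0158, adjusted p = 0.136), with mice 7 and 8 well above the other NTG mice. Without either of them that call was lost.

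The pyruvate dehydrogenase complex turns pyruvate into acetyl-CoA, and its first enzyme is built from the products of Pdha1 and Pdhb. Pdhb stood at 112, 107, 98.7 and 98.2 CPM in the NTG mice, 89.2, 96.3, 96.8, 94.2 and 83.4 CPM in the APP/PS1 mice and 90.3, 92.1, 97.7, 89.1 and 83.9 CPM under CP2. All APP/PS1 mice, treated or not, lay below the lowest NTG mouse. Its log2 fold change against NTG was -0.18 in APP/PS1 (SE 0.06, unadjusted p = 0.0151, adjusted p = 0.14) and -0.20 in APP/PS1 mice given CP2 (SE 0.06, unadjusted p = 0.00407, adjusted p = 0.0609). Pdha1 was at 239 to 258 CPM in NTG, 218 to 249 CPM in APP/PS1 mice and 214 to 246 CPM with CP2 and did not pass, with -0.08 and -0.09 in the same comparisons. Dlat, which forms the core of the complex, stood at 91.7, 101, 93.6 and 101 CPM in the NTG mice, 83.8, 91.7, 90.2, 84 and 92.7 CPM in the APP/PS1 mice and 86.3, 87.3, 94.9, 93.7 and 93.6 CPM under CP2. It was lower in APP/PS1 than in NTG mice (log2 fold change -0.13, unadjusted p = 0.0311, adjusted p = 0.208), with overlap at mice 17 and 20. Pdhx, which anchors the third enzyme, stood at 45.4, 48.8, 43.4 and 45 CPM in the NTG mice, 41.9, 46.8, 41.5, 42.4 and 44.9 CPM in the APP/PS1 mice and 41.8, 41.1, 42.9, 45 and 38 CPM under CP2. It was lower in APP/PS1 mice given CP2 than in NTG mice at an unadjusted p (-0.13, unadjusted p = 0.0389, adjusted p = 0.216). Between the APP/PS1 groups no gene of the complex passed, with log2 fold changes of -0.02 for Pdha1, -0.03 for Pdhb, 0.04 for Dlat, -0.04 for Dld and -0.06 for Pdhx.

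Of the 4 kinase genes whose products switch the complex off, 1 passed an adjusted test. Pdk1, a target of the hypoxia-inducible factor HIF-1, stood at 55.1, 58.4, 59.2 and 62.8 CPM in the NTG mice, 55.9, 69.3, 63.8, 67.2 and 81.4 CPM in the APP/PS1 mice and 68.1, 65.9, 64.9, 68.8 and 64.2 CPM under CP2. All CP2-treated mice lay above the highest NTG mouse, and 4 of 5 vehicle-treated APP/PS1 mice did. Pdk1 rose by 12.8% in APP/PS1 mice given CP2 against NTG mice (log2 fold change 0.17, SE 0.05, adjusted p = 0.0479), a call kept in 4 of 17 alternative fits, and had a log2 fold change of 0.20 in APP/PS1 mice (SE 0.09, unadjusted p = 0.0629). Pdk2, the most abundant of the 4 here, stood at 102, 86.2, 98.1 and 106 CPM in the NTG mice, 80.7, 94.4, 91.5, 90.05 and 93.3 CPM in the APP/PS1 mice and 93.7, 85.7, 86.3, 87.2 and 88.6 CPM under CP2. It went the other way at an unadjusted p in APP/PS1 mice given CP2 against NTG mice (-0.15, unadjusted p = 0.0255, adjusted p = 0.173). Pdk3 (0.01 in APP/PS1 against NTG mice) and Pdk4 (-0.01) passed no test, nor did Pdp1, the phosphatase that turns the complex on, which was the most variable gene of the set in APP/PS1 mice, with an SD of 27.2% of the mean and values from 77.6 to 145 CPM. Pcx, pyruvate carboxylase, which feeds oxaloacetate and is typical of astrocytes, had -0.09 in APP/PS1 against NTG mice and -0.0005 under CP2.

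In the TCA cycle Idh2 and Suclg2 were higher and Fh1 lower in APP/PS1 than in NTG mice, each at an unadjusted p. Idh2, the NADP-dependent mitochondrial isocitrate dehydrogenase, stood at 35, 32.3, 33.3 and 33.7 CPM in the NTG mice, 34.2, 43.6, 38.7, 41.9 and 37.8 CPM in the APP/PS1 mice and 37.5, 38.6, 31.8, 31.8 and 32.6 CPM under CP2. All APP/PS1 mice but mouse 16 lay above the NTG mice, and under CP2 mice 21 and 22 lay above them while the other 3 lay near or below their low end. The log2 fold change was 0.22 in APP/PS1 against NTG mice (SE 0.07, unadjusted p = 0.00914, adjusted p = 0.104) and -0.19 under CP2 in APP/PS1 mice (SE 0.08, unadjusted p = 0.031, adjusted p = 0.744). Suclg2, the subunit that makes succinyl-CoA ligase use GTP, stood at 19.3, 17.9, 17.7 and 18.4 CPM in the NTG mice, 20.5, 20.8, 22.3, 26 and 20.4 CPM in the APP/PS1 mice and 24.4, 22.3, 19.1, 16.4 and 19.2 CPM under CP2. All APP/PS1 mice exceeded all NTG mice, and the CP2-treated mice reached from below the NTG range to above it. Its log2 fold change was 0.27 in APP/PS1 against NTG mice (SE 0.08, unadjusted p = 0.00714, adjusted p = 0.0883) and -0.12 under CP2 (95% interval -0.35 to 0.11). Sucla2, the ATP-using counterpart, had -0.11 in APP/PS1 mice, and the log2 ratio of Suclg2 to Sucla2 ran from -3.12 to -2.89 in NTG mice and from -2.76 to -2.35 in APP/PS1 mice, without overlap.

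Suclg1, the subunit shared by both ligases, stood at 96.6, 89, 86 and 82.9 CPM in the NTG mice, 78.9, 88.4, 86.1, 78 and 74.6 CPM in the APP/PS1 mice and 77.6, 77.3, 83.1, 72 and 73.3 CPM under CP2. It was lower in APP/PS1 mice given CP2 than in NTG mice (log2 fold change -0.21, SE 0.06, unadjusted p = 0.00338, adjusted p = 0.0539), with mouse 23 inside the NTG range. Fh1, fumarate hydratase, stood at 85.9, 85.3, 76.9 and 75.6 CPM in the NTG mice, 67, 75.6, 75.6, 72.7 and 68.1 CPM in the APP/PS1 mice and 71.3, 72.2, 78.7, 70.8 and 68.8 CPM under CP2. The APP/PS1 mice lay below all NTG mice, only just in mice 17 and 18, and mouse 23 under CP2 overlapped. Its log2 fold change against NTG was -0.17 in APP/PS1 (SE 0.06, unadjusted p = 0.0158, adjusted p = 0.144) and -0.16 in APP/PS1 mice given CP2 (unadjusted p = 0.0133, adjusted p = 0.123). Mdh2, mitochondrial malate dehydrogenase, which closes the cycle, stood at 213, 221, 223 and 220.3 CPM in the NTG mice, 225, 228, 218, 211 and 211 CPM in the APP/PS1 mice and 207, 204, 209, 204 and 199.6 CPM under CP2. Every CP2-treated mouse lay below every mouse of both other groups, which overlapped each other. Mdh2 had a log2 fold change of -0.10 under CP2 in APP/PS1 mice (SE 0.04, unadjusted p = 0.023, adjusted p = 0.744) and -0.10 against NTG mice (unadjusted p = 0.0133, adjusted p = 0.123).

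The NAD-dependent isocitrate dehydrogenase, a control point of the cycle, is built from the products of Idh3a, Idh3b and Idh3g. Idh3b stood at 185, 177, 189 and 180.1 CPM in the NTG mice, 162, 191, 184, 170.3 and 174 CPM in the APP/PS1 mice and 169, 167, 176, 173 and 167 CPM under CP2. Idh3g stood at 115, 107, 114 and 106 CPM in the NTG mice, 103, 115, 112, 103 and 108 CPM in the APP/PS1 mice and 104, 102, 107, 99.3 and 101 CPM under CP2. The CP2-treated mice all lay below the NTG mice for Idh3b, and mouse 23 overlapped for Idh3g. Against NTG mice the log2 fold changes under CP2 were -0.10 for Idh3b (unadjusted p = 0.0169, adjusted p = 0.141) and -0.11 for Idh3g (unadjusted p = 0.0234, adjusted p = 0.166). Idh3a, the catalytic subunit, was at 186 to 196 CPM in NTG, 169 to 204 CPM in APP/PS1 mice and 174 to 190.4 CPM with CP2 and did not pass (-0.07). Citrate synthase, Cs, often read as a measure of mitochondrial content, was at 240.2 to 269.8 CPM in NTG, 235 to 253 CPM in APP/PS1 mice and 235 to 257 CPM with CP2, with log2 fold changes of -0.04 in APP/PS1 mice and -0.01 under CP2 (95% intervals -0.15 to 0.06 and -0.10 to 0.08). Ogdh, the first enzyme of the oxoglutarate dehydrogenase complex, was at 236 to 255 CPM in NTG, 227 to 257 CPM in APP/PS1 mice and 236 to 260.1 CPM with CP2, with 0.02 and -0.01 in the same comparisons. Dlst, the second enzyme of that complex, had -0.02 and -0.04. None of these passed a test.

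Mdh1 is the cytosolic malate dehydrogenase of the malate-aspartate shuttle, which carries the electrons of NADH, not NADH itself, into mitochondria. It stood at 885, 859, 681 and 685 CPM in the NTG mice, 656, 711, 719, 692 and 623 CPM in the APP/PS1 mice and 646, 662, 714, 620.2 and 559 CPM under CP2. The NTG mice were split, with mice 7 and 8 at the top and mice 9 and 10 within the range of the transgenic mice. Mice 7 and 8 also lay above mice 9 and 10 for Mpc1, Mpc2, Pdha1, Pdhb, Dld, Pdhx and Pdk3 of pyruvate entry. The same held for Suclg1, Sucla2 and Fh1 of the TCA cycle. Mice 7 and 8 lay below mice 9 and 10 for Pdk1, Pcx and Cs. Mdh1 was lower in APP/PS1 mice given CP2 than in NTG mice (log2 fold change -0.28, SE 0.09, unadjusted p = 0.0133, adjusted p = 0.123). Got1 and Got2, the aspartate aminotransferases, and Glud1, glutamate dehydrogenase, passed no test, with log2 fold changes between -0.11 and 0.02 in the 3 comparisons.

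Several of these calls rested on single mice or on the setting. In APP/PS1 against NTG mice the unadjusted calls of Slc2a1, Idh2 and Suclg2 were kept in 17 of 17 alternatives. Pdhb kept its call in 16 of 17 (lost without mouse 7) and Fh1 in 15 (lost without mouse 7 and with the share of ribosomal RNA-like counts as a covariate). Dlat kept its call in 12 (lost without mouse 8, 10, 16 or 19 and with that covariate). Pfkfb3 kept its unadjusted call in only 8 of 17, losing it without any of the 4 NTG mice or mouse 16, 18 or 19, and Mpc2 also in 8, losing it without mouse 7, 8, 9, 16, 19 or 20. Under CP2 in APP/PS1 mice Gapdh kept its call in 17 of 18 alternatives, Mdh2 in 16 (lost without mouse 17), Idh2 in 12 (lost without mouse 17, 19, 23, 24 or 25) and Ldhb in 12 (lost without mouse 16, 17, 18, 24 or 25), and all 4 lost it with that covariate.

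In APP/PS1 mice given CP2 against NTG mice the unadjusted calls of Mpc2, Pdhb, Suclg1, Fh1, Mdh1 and Mdh2 were kept in 17 of 17 alternatives. Idh3b kept its call in 16 (lost without mouse 9), Slc2a1 in 15 (lost without mouse 7 or 10), Idh3g in 14 (lost without mouse 7, 9 or 24), Pdk2 in 13 (lost without mouse 7, 10 or 22) and Pdhx in 11 (lost without mouse 7, 8, 21, 22 or 25). The adjusted call of Hk2 there was lost without mouse 8, 9, 10 or 21, and that of Ldhb without mouse 8, 9, 21 or 24.

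Of 65 further genes of the same and neighbouring pathways, 57 passed the filter. In APP/PS1 against NTG mice 3 of them passed an adjusted p under 0.05, all higher: Hk3 (log2 fold change 0.95, adjusted p = 0.00144), a hexokinase of blood and immune cells; Slc2a4 (0.89, adjusted p = 0.0245), the insulin-responsive transporter GLUT4; and Pgd (0.25, adjusted p = 0.0256) of the pentose phosphate pathway. The adjusted threshold was passed by 5.68% of all genes tested there. At an unadjusted p under 0.05, 9 of the 57 were higher and 5 lower, against 10.6% and 8.05% of all genes tested. Between the APP/PS1 groups none passed the adjusted threshold in edgeR, none was higher and 7 were lower at an unadjusted p, among them the pentose phosphate genes Taldo1 (-0.15), Pgls (-0.16) and G6pdx (-0.17), Me3 (-0.29) and Sdhb (-0.14), each with an adjusted p of 0.744. In APP/PS1 mice given CP2 against NTG mice Hk3 (0.61, adjusted p = 0.0298), Hif1a (0.22, adjusted p = 0.0263), which encodes the oxygen-regulated subunit of HIF-1, and Pgd (0.20, adjusted p = 0.0415) rose. Among those that fell were Pygm, muscle-type glycogen phosphorylase (-0.53, adjusted p = 0.000562), and Slc25a18, a mitochondrial glutamate carrier (-0.32, adjusted p = 0.0410). In all 10 were higher and 8 lower there at an unadjusted p under 0.05, against 11.6% and 8.59% of all genes tested. The adjusted threshold was passed by 6.02% of all genes there. Between the APP/PS1 groups 2.88% of all genes tested were higher and 3.66% lower at an unadjusted p under 0.05.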

How the data were processed

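Polyadenylated RNA of 14 mice was sequenced as paired 101-base reads. The authors aligned the reads to mm10 with TopHat2 in the MAP-RSeq workflow, counted them per Ensembl gene with featureCounts, and deposited raw counts and RPKM values per gene and mouse. Reads that overlap several genes were counted for each, and the strand setting and the treatment of reads with several matches are not given in the sources used here. From the deposited counts, each pair of groups was fitted alone with edgeR 4.0.16 (R 4.3.3; TMM factors 0.953 to 1.03, quasi-likelihood test, two-sided, Benjamini-Hochberg adjustment over all genes tested). A gene was tested where all mice of either group exceeded a CPM of 1 (scaled with DESeq2's size factors, the authors' filter). Fold changes are the first group over the second. RPKM values were used only to compare levels between genes. Groups were taken from the labels. The mice are separate animals, and no pair of mice within a group agreed within sampling noise (26 pairs, lowest chi-square per degree of freedom 10.5).

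The 51 genes and all lists were chosen with earlier results of these data known. Values in every mouse are given for genes with an adjusted or unadjusted p under 0.05 in at least 1 comparison, and Hk1, Pfkm, Pkm, Pdha1, Cs, Idh3a and Ogdh are always given. Further pathway genes are named at most 5 in each direction, by smallest p, and 1 that passed is not reported here. Alternatives were DESeq2 1.42.0, limma-voom (limma 3.58.1) with quality weights, other scalings and filters, 1 fit of all 3 groups, the share of ribosomal RNA-like counts as a covariate, and leaving out each mouse. Shared stretches were counted over GENCODE M21 transcripts. Libraries of 70548781 to 106235625 counts gave each of the 51 genes at least 272 counts in every mouse. Intervals use the degrees of freedom of the test and include the spread between mice.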

Additional observations from a re-analysis of the deposited data

Results flagged for a closer look

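In 8 of the 153 sets formed by 1 gene in 1 group, a single mouse stood apart from its group by the gap to its nearest neighbour relative to the range (Dixon's 95% critical value), and chance gives about 1 in 20 such sets. In NTG mice Aldoc was 1023 CPM in mouse 7 (others 865 to 882), Pkm was 1523 CPM in mouse 7 (others 1442 to 1454) and Ogdh was 255 CPM in mouse 10 (others 236 to 237). In APP/PS1 mice Pgk1 was 88.6 CPM in mouse 16 (others 101 to 105), Eno1 was 405 CPM in mouse 20 (others 289.6 to 319), the 1 mouse of that group with a low share of Eno1b, and Got1 was 265 CPM in mouse 19 (others 288 to 297). Under CP2 Pgam1 was 265 CPM in mouse 25 (others 277 to 282) and Pdk4 was 12.4 CPM in mouse 23 (others 14.2 to 14.5).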

How the results depend on the processing

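In APP/PS1 against NTG mice, the genes of the 51 with an adjusted p under 0.05 went from 1 to 4 with DESeq2 and to 4 with limma-voom (Slc2a1, Hk2, Idh2 and Suclg2 in the latter), and ranged from 1 to 4 when single mice were left out. The 4 genes lower at an unadjusted p became 1 (Pdhb) with the share of ribosomal RNA-like counts as a covariate, and 1 to 5 without single mice (1 without mouse 7, 2 without mouse 16 or 19). Under CP2 in APP/PS1 mice that covariate changed the genes higher from 0 to 1 (Pdk4) and the genes lower from 4 to 0, and without single mice the latter ranged from 1 to 4 (1 without mouse 17, 2 without mouse 24 or 25). In CP2-treated APP/PS1 against NTG mice the 4 genes with an adjusted p under 0.05 became 9 with DESeq2 and 1 (Hk2) in 1 fit of all 3 groups, and 1 to 5 without single mice (1 without mouse 9 or 21, 2 without mouse 8 or 24). There the 13 genes lower at an unadjusted p became 9 without mouse 7 and 16 without mouse 23, the ends of the range without single mice. The shares of all genes called in these other fits are not given here. The changed counts therefore cannot be set beside a background and are not a result about these genes. The cause of these changes was not tested. Hk2 kept its adjusted call in 17 of 17 alternatives in APP/PS1 mice and in 13 of 17 in CP2-treated APP/PS1 mice, and there Pfkfb3 kept it in 16, Ldhb in 12 and Pdk1 in 4 of 17. None of the 30 calls of single genes described above changed direction in the alternatives run. Pdk4 was not called, at -0.05 under CP2 in APP/PS1 mice, and lay on the other side of 0 with the covariate. No paired analysis was possible because the mouse numbers do not repeat between groups.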
